A study of Mus musculus with 6 samples.

Results

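Alox5, Alox5ap, Alox12, Alox15, Ltc4s and Lta4h are the mouse genes of the lipoxygenase and leukotriene pathway followed here in colon and liver. They were taken by symbol: a probe set, a group of short probes that reads 1 transcript region, belonged to a gene if the array annotation gave it that symbol alone. The 6 genes had 9 probe sets of the 45101 on the array, out of 18194 genes with a probe set of their own. Alox5, Alox5ap, Alox15 and Ltc4s had 1 probe set each, Alox12 had 2 and Lta4h had 3.

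RNA came from male C57BL6/J mice, 7 weeks old, and was read on Affymetrix Mouse Genome 430 2.0 arrays. The DSSPAR group ate a diet with 2% parsley throughout and, after 7 days of plain water, drank 1.5% (w/v) dextran sodium sulphate (DSS), which damages the lining of the colon and is used to induce colitis, for 9 days. The DSS group had the basal diet and drank the same solution for 10 days, so diet and 1 day of exposure cannot be told apart between DSSPAR and DSS by these treatment protocols, although the growth protocol names 9 days. The control group (CON) had the basal diet and plain water. Each array read the pooled RNA of a group's 7 mice in 1 tissue, 6 arrays in all. A ratio thus sets 1 pool against another, without replicates and without a p-value, and precision is limited by the number of arrays.

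Lipoxygenases add oxygen to arachidonic acid, a fatty acid that phospholipases A2 release from membranes. The product of Alox5 makes leukotriene A4 with the help of the membrane protein encoded by Alox5ap, which presents the fatty acid to it. Lta4h encodes the enzyme that turns leukotriene A4 into leukotriene B4, an attractant of neutrophils, and Ltc4s encodes the enzyme that joins it to glutathione to give leukotriene C4. The products of Alox12 and Alox15 oxidise other positions of the fatty acid. In mice Alox12 is best known from platelets, and Alox15 from eosinophils and resident peritoneal macrophages. Alox5 and Alox5ap are mainly genes of myeloid cells and other leukocytes, whereas Lta4h is expressed widely.

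The promoters of Lta4h and Alox5 are shown because Lta4h had a probe set far above background on all 6 arrays, whereas Alox5, the enzyme gene partnered by Alox5ap, had none above it in colon. RefSeq's table for GRCm38.p6 held promoters for 4 of the 6 genes (Alox5, Alox12, Ltc4s and Lta4h). The 250 bases before each start are given 5′ to 3′ on the gene's strand, Lta4h from chr10:93453146-93453395 on the plus strand and Alox5 from chr6:116461179-116461428 on the minus strand. Capitals mark matches, on either strand, to the GC box (GGGCGG), the CCAAT box (CCAAT) and the core of the motif of PU.1 (GAGGAA), a transcription factor of myeloid cells.
Lta4h: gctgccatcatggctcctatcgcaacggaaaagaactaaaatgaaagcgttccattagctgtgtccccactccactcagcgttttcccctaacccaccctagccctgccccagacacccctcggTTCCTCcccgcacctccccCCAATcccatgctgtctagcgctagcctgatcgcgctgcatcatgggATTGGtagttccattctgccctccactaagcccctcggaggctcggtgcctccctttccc
Alox5: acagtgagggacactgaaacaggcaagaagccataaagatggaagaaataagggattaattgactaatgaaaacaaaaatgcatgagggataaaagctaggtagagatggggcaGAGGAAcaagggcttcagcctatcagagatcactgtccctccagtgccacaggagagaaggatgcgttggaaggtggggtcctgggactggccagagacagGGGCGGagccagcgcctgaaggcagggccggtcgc

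The Lta4h sequence held 2 CCAAT boxes, the first letters of which lay 107 and 60 bases before the start, and 1 PU.1 core 126 bases before it. The Alox5 sequence held 1 GC box 35 bases before the start and 1 PU.1 core 136 bases before it. Among 27025 promoters of this length, 32.9% held a GC box, 34.5% a CCAAT box and 23.1% a PU.1 core, so each of these matches is common. The TATA box (TATAAA), the palindrome of STAT factors (TTCNNNGAA) and that of C/EBP factors (TTGCNNCAA) were searched too and had no match in these windows, and no match overlapped another. A match is a run of letters and was not measured as a binding site.

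Intensities of the 2 tissues were on different scales, and levels were not compared between colon and liver. The floor, below which a value was taken as background, was the median of all intensities on the 3 arrays of a tissue, 25.1 in colon and 96.6 in liver. A gene was measured in a comparison if at least 1 of the 2 arrays lay above the floor, values under it were raised to it, and a fold against such a value is a bound. The colon arrays carried colon epithelium markers, with 10 of 10 above the floor on all 3 arrays, and the liver arrays carried hepatocyte markers, with 9 of 9. Olfactory receptor probe sets, which neither tissue should express, lay above the floor in at most 2.27% of 44 cases per colon array but in 15.9% to 27.3% per liver array, so a liver value near the floor is weak evidence of expression. The robust SD of the difference in log2 ratio between probe sets of 1 gene was 0.35 to 0.40 in colon and 0.44 to 0.52 in liver, which covers probe disagreement but not differences between pools.

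**Figure D1:**
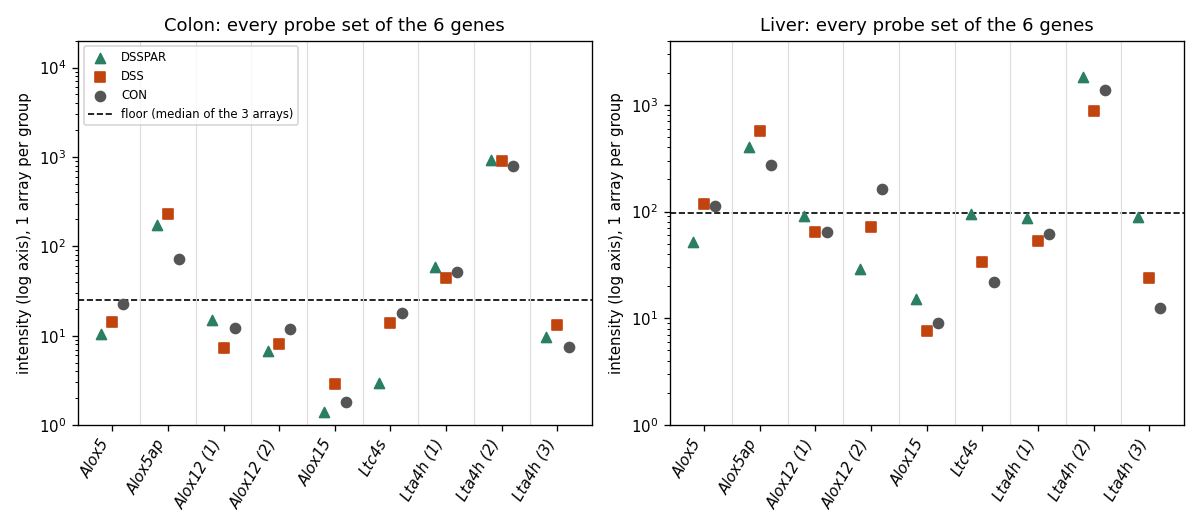
Intensity (log axis) of each of the 9 probe sets in the DSSPAR, DSS and CON arrays of colon (left) and liver (right), 1 point per array, with the floor as a dashed line; numbers in brackets tell apart the probe sets of 1 gene. Alox5ap and the second Lta4h probe set lie above the floor on all arrays of both tissues, while the points of Alox15 and Ltc4s all lie below it.

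Alox5ap was the member that differed most clearly between groups in colon. Its intensity was 175 in DSSPAR, 228 in DSS and 72.9 in CON, all above the floor. The arrays of both DSS-treated groups were high and the control array was low, and DSSPAR lay between DSS and CON.

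Against CON, Alox5ap was 3.12-fold higher in the DSS colon (log2 ratio 1.64) and 2.39-fold higher in the DSSPAR colon (log2 ratio 1.26). The first ratio was 4.26 times the robust SD between probe sets and ranked 196 from the top of 11952 measured genes, of which 7.15% passed 2-fold in either direction, 5.18% upward and 1.97% downward. It was 1 of the 2 measured members, and no member was 2-fold lower. In the DSSPAR comparison it ranked 215 of 11808, where 5.61% of genes passed 2-fold, 3.51% upward and 2.1% downward, and it was again the 1 member of 2 to do so. With the floor raised to the 75th percentile the DSSPAR value became at least 1.68-fold and no longer passed 2-fold. Both comparisons share the CON array, so they are not independent of each other.

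Between DSSPAR and DSS, Alox5ap was 1.30-fold lower in DSSPAR (log2 ratio -0.38). This difference is about as large as the robust SD between probe sets in that array pair, 0.35, and 85.6% of measured genes had a higher ratio. None of the 2 measured members passed 2-fold in this pair, in which 1.64% of genes did, 0.392% upward and 1.24% downward.

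Alox5ap was also higher in the liver of the treated groups. Its intensity was 402 in DSSPAR, 563 in DSS and 274 in CON, with DSSPAR again between the others. The DSS liver was 2.06-fold higher than CON (log2 ratio 1.04), just past 2-fold, in a comparison where 8.93% of 13034 genes passed 2-fold, 4.73% upward and 4.2% downward. It was the 1 of 3 measured members to pass. The value was 2.09 times the robust SD between probe sets, and with the floor at the 75th percentile it became at least 1.53-fold.

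The DSSPAR liver was 1.47-fold higher than CON in Alox5ap (log2 ratio 0.55) and 1.40-fold lower than DSS (log2 ratio -0.49). Neither passed 2-fold. Of all genes 6.71% passed it in DSSPAR against CON, 3.26% upward and 3.45% downward, and none of the 3 measured members did. The last difference was smaller than the robust SD between probe sets in that pair, 0.52.

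Lta4h was read by 3 probe sets that did not behave alike. Its brightest one, which reads several transcripts of the gene, gave 918 in DSSPAR, 890 in DSS and 782 in CON in colon. These arrays differed little: the DSS colon was 1.14-fold higher than CON, and the DSSPAR colon was 1.03-fold higher than DSS and 1.17-fold higher than CON. The second colon probe set above the floor gave 58.9 in DSSPAR, 43.9 in DSS and 51.5 in CON, which puts DSS 1.17-fold lower than CON, so the sign of that small difference depends on the probe set.

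In liver the same bright probe set of Lta4h gave 1841 in DSSPAR, 872 in DSS and 1384 in CON. The DSS array was the low one. DSSPAR was 2.11-fold higher than DSS (log2 ratio 1.08), which ranked 262 of 12398 genes, of which 7.03% passed 2-fold, 2.8% upward and 4.23% downward. No other of the 3 measured members passed. This was 2.08 times the robust SD between probe sets.

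Against CON, Lta4h was 1.59-fold lower in the DSS liver (log2 ratio -0.67) and 1.33-fold higher in the DSSPAR liver (log2 ratio 0.41). Averaged over its 3 probe sets, the gene was 1.01-fold higher in DSS and 2.37-fold higher in DSSPAR, so both values depend on the probe sets used. The other liver probe sets of Lta4h lay below the floor on all 3 arrays. Their intensities were 87.0 and 88.3 in DSSPAR, 52.6 and 24.0 in DSS and 61.5 and 12.5 in CON, so DSSPAR was the highest array for every Lta4h probe set in liver, but only 1 of the 3 could be read there.

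**Figure D2:**
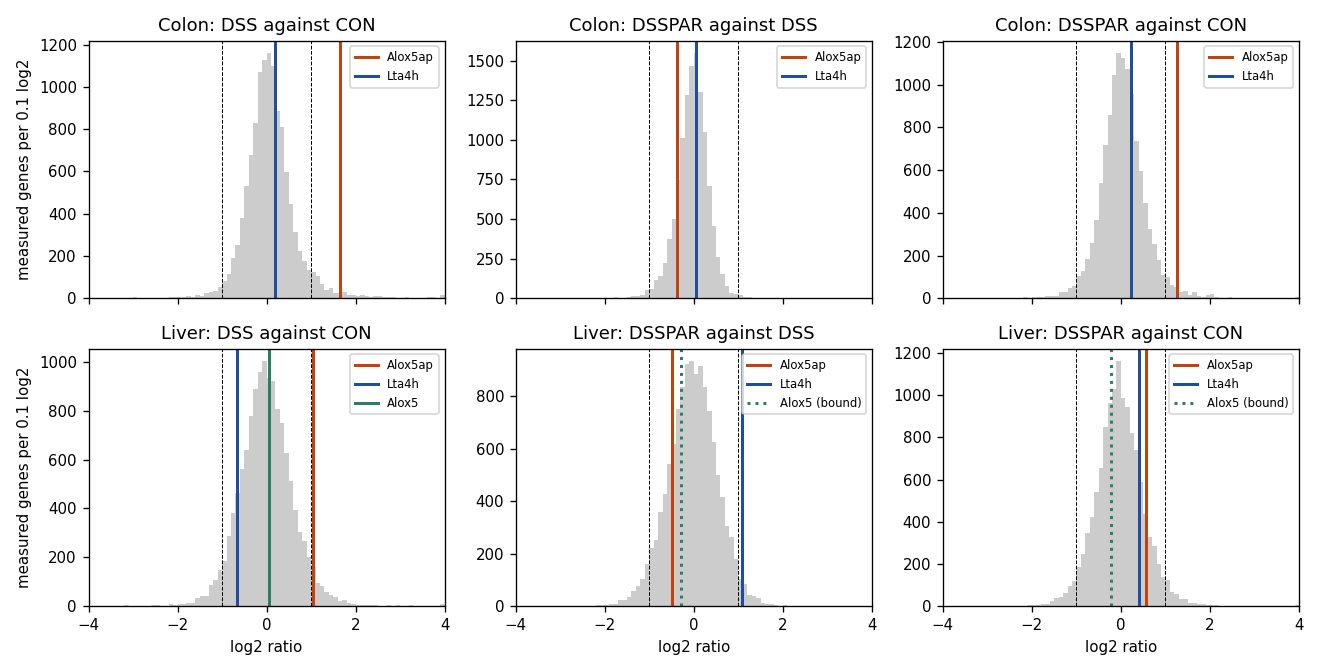
Histograms of the log2 ratios of all measured genes (grey, genes per 0.1 log2) for 3 comparisons in colon (top) and liver (bottom), with the ratios of measured members as vertical lines and 2-fold as dashed lines; dotted lines are bounds, and ratios beyond 4 are drawn in the last bin. Alox5ap lies right of the 2-fold line for DSS against CON in both tissues and for DSSPAR against CON in colon, and Lta4h does so only for DSSPAR against DSS in liver.

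Alox5, the enzyme that Alox5ap serves, was not measurable in colon. Its only probe set gave 10.4 in DSSPAR, 14.3 in DSS and 22.6 in CON, all under the floor of 25.1. In liver it gave 51.7 in DSSPAR, 117 in DSS and 114 in CON.

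The liver arrays of DSS and CON were close to each other in Alox5 (1.03-fold higher in DSS) and a little above the floor of 96.6. DSSPAR lay below it, at least 1.21-fold lower than DSS and at least 1.17-fold lower than CON. Taken without a floor the same arrays differ 2.26-fold and 2.20-fold, but these values are in the range where liver arrays also read olfactory receptors.

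The remaining members were at background nearly throughout. Ltc4s gave 2.96 in DSSPAR, 14.03 in DSS and 18.1 in CON in colon. In liver it gave 94.8 in DSSPAR, 33.96 in DSS and 21.7 in CON, so its highest array stopped just short of the floor. DSSPAR was thus the lowest array in colon and the highest in liver, both under the floor.

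Alox15 was the dimmest member. It gave 1.39 in DSSPAR, 2.86 in DSS and 1.79 in CON in colon, and 15.2, 7.58 and 8.98 in the liver arrays of DSSPAR, DSS and CON. The highest of these values stood at percentile 18.6 of its own array, and no ratio is read from them.

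Alox12 had 2 probe sets that disagreed in liver. The first gave 90.7 in DSSPAR, 63.9 in DSS and 64.5 in CON, all under the floor. The second gave 28.7 in DSSPAR, 72.1 in DSS and 163 in CON, so it was at least 1.69-fold lower in both treated groups, with CON as the array above the floor. The order of the arrays was opposite for DSSPAR and CON between these probe sets, and no direction is given for the gene.

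In colon both Alox12 probe sets lay between 6.76 and 15.1 on every array, under the floor. Counting genes by their brighter probe set, 2 of the 6 members were measured in colon and 3 in liver. The other 4 in colon had no probe set above the floor. Of the other 3 in liver, Alox15 and Ltc4s had none either, and Alox12 had its second probe set above the floor in CON alone. A value under the floor does not show that a gene is absent.

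Other genes of the arachidonic acid pathway are given by role, with the members past 2-fold. Of 20 genes listed under arachidonic acid release, not all of which carry out that step, 19 were on the array. In colon DSS against CON 14 were measured, of which 4 passed 2-fold, all upward (median log2 ratio 0.38, against 0.042 over all genes), where 5.18% of all genes passed upward.

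Those 4 were Pla2g2a, a secreted bactericidal phospholipase whose gene is known to be defective in C57BL/6 mice (at least 12.0-fold), Pla2g7, which degrades platelet-activating factor (4.72-fold), Pla2g4f (at least 2.59-fold) and Pla2g5 (2.50-fold). Pla2g4a, the cytosolic phospholipase that feeds the leukotriene pathway, was 1.32-fold higher in the DSS colon, with intensities of 570 in DSSPAR, 609 in DSS and 462 in CON. Between DSSPAR and DSS only Pla2g7 of 15 measured genes passed 2-fold, 2.45-fold lower in DSSPAR, where 1.64% of all genes passed.

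Against CON, 5 of 15 measured genes of this list passed 2-fold upward in the DSSPAR colon, where 3.51% of all genes did. Pla2g2a was at least 8.27-fold and Pla2g4f at least 3.31-fold higher, and Pla2g5 gave 243 in DSSPAR, 151 in DSS and 60.5 in CON. Pla2g10, the brightest gene of the list in colon, gave 1882 in DSSPAR, 1184 in DSS and 916 in CON. Plaat3, an acyltransferase with phospholipase activity also known as Pla2g16, gave 805, 549 and 384 in the same groups. For these last genes DSSPAR was the highest array, 2.06-fold and 2.10-fold above CON.

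In liver Pla2g4a differed more. It gave 380 in DSSPAR, 573 in DSS and 145 in CON, so that DSS was 3.94-fold and DSSPAR 2.61-fold higher than CON. With Pla2g7 (at least 2.90-fold) it made up the 2 of 13 measured genes past 2-fold in DSS, both upward. The upward share over all genes was 4.73% in that comparison. The arrays of Pla2g4a stood in the same order as those of Alox5ap, DSS highest and CON lowest. Pla2g12b, the brightest of the list in liver, gave 4361 in DSSPAR, 5577 in DSS and 4417 in CON.

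Downstream of leukotriene A4, trimming enzymes differed in both directions in the colon. Ggt5, which removes glutamate from leukotriene C4, gave 80.4 in DSSPAR, 217 in DSS and 48.2 in CON, so DSS stood 4.50-fold above CON and DSSPAR 2.69-fold below DSS. Dpep1, a dipeptidase that acts on leukotriene D4, gave 376 in DSSPAR, 266 in DSS and 823 in CON, and was 3.09-fold lower in DSS than in CON. They were the 2 of 7 measured genes of this list past 2-fold in DSS against CON (median log2 ratio 0.045), where 7.15% of all genes passed.

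Mgst2 and Mgst3, which in other settings can also conjugate leukotriene A4 with glutathione, differed less in colon. Mgst2 was 1.06-fold and Mgst3 1.03-fold higher in DSS than in CON, and DSSPAR was 1.45-fold and 1.26-fold higher than DSS. In liver 1 of 6 measured genes of the list passed 2-fold for DSS against CON, the exporter gene Abcc4 (at least 2.04-fold higher), where 8.93% of all genes passed. Ggt6, the brightest of the list in liver, gave 829 in DSSPAR, 1035 in DSS and 755 in CON.

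Genes of leukotriene B4 breakdown differed in both directions in the DSS liver. Of 7 measured, 3 passed 2-fold downward and 1 upward in DSS against CON (median log2 ratio -0.70, against -0.018 over all genes), where 4.2% of all genes passed it downward and 4.73% upward. The 3 that did not pass were Cyp4f16, 1.75-fold higher, Cyp4f15, 1.63-fold lower, and Ptgr2, 1.33-fold lower. Aldh3a2, a fatty aldehyde dehydrogenase, gave 1408 in DSSPAR, 929 in DSS and 3098 in CON and was 3.33-fold lower in DSS.

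Cyp4f14, a fatty acid hydroxylase of the P450 family, gave 3683 in DSSPAR, 1510 in DSS and 3183 in CON, and Cyp4f13 gave 684, 366 and 773 in the same order of groups. DSS was the low array for both, 2.11-fold lower than CON in each, and Cyp4f14 was 2.44-fold higher in DSSPAR than in DSS. Ptgr1, a reductase that inactivates leukotriene B4, was higher instead, 2.13-fold in DSS and 2.40-fold in DSSPAR against CON. In liver DSS was the lowest array for Cyp4f14, Cyp4f13, Cyp4f15 and Aldh3a2 of this list, as for Lta4h, but not for Cyp4f16, Ptgr1 or Ptgr2.

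In colon the breakdown list had 1 of 7 measured genes past 2-fold for DSS against CON, where 7.15% of all genes passed, so nothing is read from the count. This was Cyp4f18, the hydroxylase of leukotriene B4 in mouse neutrophils, which gave 53.1 in DSSPAR, 55.3 in DSS and 7.51 in CON. Against the floor it was at least 2.21-fold higher in DSS and at least 2.12-fold higher in DSSPAR than in CON.

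Of 12 receptor genes on the array, 8 in colon and 6 in liver lay at or below the floor on all 3 arrays. Cysltr1, a receptor of cysteinyl leukotrienes, gave 175 in DSSPAR, 535 in DSS and 195 in CON in liver, with DSS the high array, 2.75-fold above CON, and DSSPAR 3.06-fold lower than DSS. In colon it gave 38.7 in DSSPAR, 62.8 in DSS and 42.3 in CON.

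Fpr2, a receptor of formyl peptides and of lipid mediators that end inflammation, gave 39.1 in DSSPAR, 89.8 in DSS and 17.6 in CON in colon. DSS was at least 3.58-fold higher than CON and DSSPAR 2.29-fold lower than DSS. In liver it was 2.15-fold higher in DSS than in CON. Ltb4r1, the high-affinity receptor of leukotriene B4, lay under the floor on all 6 arrays.

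The other lipoxygenase genes, Alox12b, Aloxe3, Alox12e and Alox8, were all at or below the floor in colon. In liver Alox12e gave 140 in DSSPAR, 150 in DSS and 261 in CON, and none of the 2 measured genes passed 2-fold. The cyclooxygenase branch turns the same fatty acid into prostaglandins, and Hpgd encodes the enzyme that breaks them down. Ptgs2 (6.59-fold higher) and Hpgd (2.63-fold lower) were the 2 of 8 measured colon genes past 2-fold for DSS against CON. The share over all genes was 7.15% there.

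Among 8 genes of lipid hydroperoxide reduction and of partners of the enzyme of Alox5, only Gpx2 passed 2-fold for DSS against CON in colon. It encodes a glutathione peroxidase of the gut epithelium and was 3.67-fold higher in DSS, where 7.15% of all genes passed 2-fold. Cotl1, which binds the enzyme of Alox5, was 1.36-fold higher in the DSS colon. In liver Gpx3, the secreted glutathione peroxidase, was 3.73-fold higher in DSS than in CON. Gpx3 was 2.40-fold and Gpx4, which reduces lipid hydroperoxides in membranes, 2.08-fold lower in the DSSPAR liver than in the DSS liver. They were the 2 of 8 genes past 2-fold in that pair, where 7.03% of all genes passed, 4.23% downward. Of 13 genes of type 2 cytokine signals, 3 of 8 measured in colon passed 2-fold in DSS against CON, all upward, where 5.18% of all genes did. They were Chil3 (at least 11.03-fold), Il33 (3.54-fold) and Il4ra (2.51-fold). Il13ra2 (at least 1.54-fold) and Arg1 (at least 1.41-fold) were higher against a CON value raised to the floor, so whether they passed 2-fold cannot be read. Retnla was 1.27-fold higher, and Stat6 (1.01-fold) and Il13ra1 (1.06-fold) were slightly lower. The cytokine genes Il4, Il5, Il13, Il25 and Tslp lay under the floor on all 3 colon arrays.

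**Figure D3:**
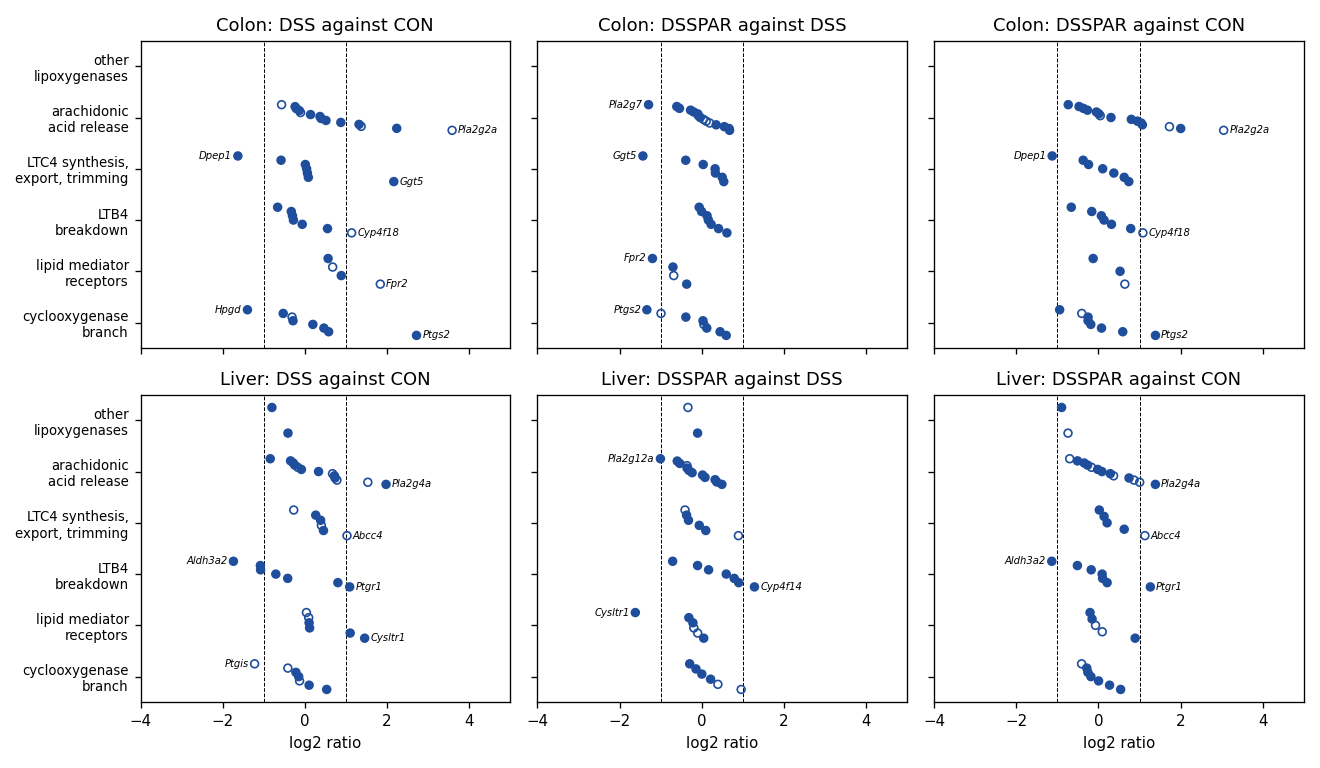
Log2 ratios of the other pathway genes by list (rows) for 3 comparisons in colon (top) and liver (bottom), 1 point per measured gene, open where the ratio is a bound, with 2-fold as dashed lines and the outermost genes past it named; height within a row carries no value, and LTC4 and LTB4 stand for leukotrienes C4 and B4. In the DSS colon 4 genes listed under arachidonic acid release, Pla2g2a and Pla2g7 among them, lie past 2-fold, all to the right. In the DSS liver 3 genes of leukotriene B4 breakdown lie past it to the left and 1 to the right.

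Alox5ap moved with leukocyte markers in colon. All 8 of 8 pan-leukocyte markers were at least 2-fold higher in DSS than in CON (median log2 ratio 1.87), where 5.18% of all genes were. Their summed intensity was 2744 in DSSPAR, 3093 in DSS and 839 in CON. The log2 ratio of Alox5ap, 1.64, lay within the range of these markers, from 1.31 for Laptm5 to 2.68 for Fcer1g. In bulk tissue more cells of a type and more RNA per cell cannot be told apart, and the part of leukocyte number in the Alox5ap difference was not tested.

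Macrophage markers also moved with it, with 8 of 10 measured at least 2-fold higher in the DSS colon than in CON, where 5.18% of all genes were. Their sum was 6637 in DSSPAR, 7136 in DSS and 2057 in CON. Of 10 neutrophil markers 5 were at or below the floor on all colon arrays. Of the 5 measured in DSS against CON, 3 passed 2-fold upward (median log2 ratio 2.49), where 5.18% of all genes did. The list's sum was 2515 in DSSPAR, 3197 in DSS and 132 in CON, of which S100a8 gave 1423 in DSSPAR, 2057 in DSS and 18.5 in CON. S100a9 was highest in DSSPAR instead, with 923 in DSSPAR, 839 in DSS and 9.96 in CON. Mmp9 was lowest in DSSPAR, with 26.0 in DSSPAR, 61.5 in DSS and 31.0 in CON. Mast cell markers summed to 375 in DSSPAR, 418 in DSS and 353 in CON. Of 7 measured in DSS against CON, 1 passed 2-fold, upward, where 5.18% of all genes did. All 6 eosinophil markers were at or below the floor in colon, where Alox15 was too.

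In liver the pan-leukocyte sum was 10477 in DSSPAR, 12218 in DSS and 6546 in CON. Of these markers 2 of 8 were at least 2-fold higher in DSS than in CON (median log2 ratio 0.75, against 1.04 for Alox5ap), where 4.73% of all genes were. Macrophage markers summed to 43232 in DSSPAR, 46245 in DSS and 25138 in CON, with 5 of 12 at least 2-fold higher in DSS. Neutrophil markers had 3 of 6 measured genes past 2-fold upward in DSS (median log2 ratio 1.10) and summed to 8829 in DSSPAR, 23744 in DSS and 1433 in CON, in the order of Alox5ap. Most of that sum came from S100a8, with 5429 in DSSPAR, 14340 in DSS and 367 in CON, and S100a9, with 2602, 8274 and 381. Ngp stood in the same order, with 209 in DSSPAR, 412 in DSS and 149 in CON. Ltf and Mmp9 did so too, with smaller differences. Elane, Csf3r and Camp differed from this order. Elane lay under the floor in DSSPAR, with 265 in DSS and 190 in CON. Csf3r and Camp lay above the floor in DSSPAR alone, and Cxcr2 and Mpo lay under it on all 3 arrays. The list drawn up for peritoneal macrophages had 3 of 6 genes past 2-fold upward in DSS, and summed to 38438 in DSSPAR, 39044 in DSS and 16904 in CON. These genes are not confined to peritoneal macrophages, and their sum in liver is not read as a measure of those cells. The part of leukocytes, macrophages and neutrophils in the liver difference of Alox5ap was not tested. Platelet markers, a source of Alox12, summed to 916 in DSSPAR, 1164 in DSS and 1173 in CON. Hepatocyte markers had no member past 2-fold in any of the 3 liver comparisons, and their sum was 478383 in DSSPAR, 745220 in DSS and 554746 in CON.

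The DSS colon array also held exocrine pancreas genes, 8 of 10 of them at least 2-fold higher than in CON (median log2 ratio 3.10), where 5.18% of all genes were. In DSSPAR against DSS 8 of 10 were at least 2-fold lower (median log2 ratio -3.10), where 1.24% of all genes were. In DSSPAR against CON only 3 of 10 were measured, the others lying under the floor on both arrays, and none passed 2-fold. The summed intensity of all 10 was 2258 in DSSPAR, 4411 in DSS and 2774 in CON. Adipocyte markers had 3 of 4 measured genes past 2-fold upward in the DSS colon against CON (median log2 ratio 1.49), and summed to 855 in DSSPAR, 1421 in DSS and 525 in CON, the same order as Alox5ap. Squamous epithelium markers had 5 of 9 past 2-fold upward and 1 downward (median log2 ratio 1.06), and summed to 516 in DSSPAR, 631 in DSS and 358 in CON. The part of any of these in the Alox5ap difference was not tested.

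**Figure D4:**
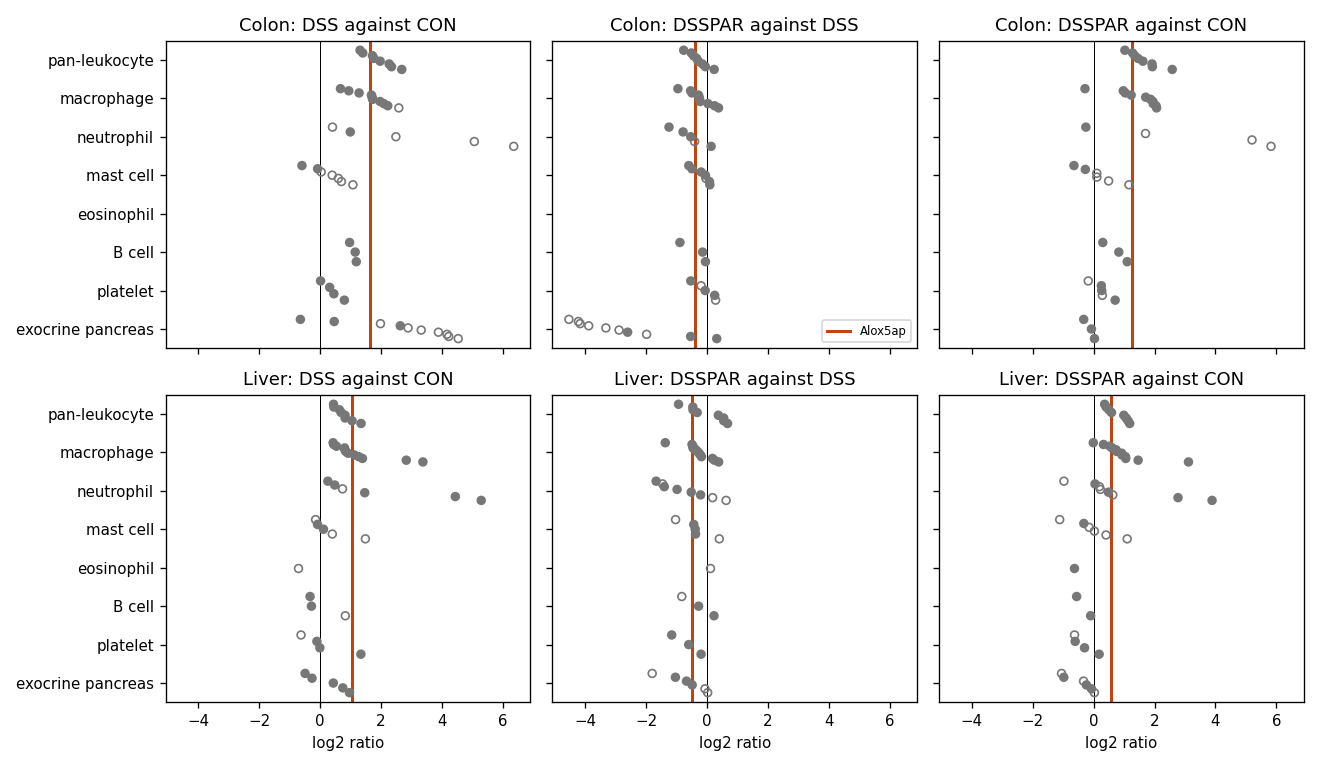
Log2 ratios of cell type markers (grey points, 1 per measured gene, open where the ratio is a bound) and of Alox5ap (vertical line) for 3 comparisons in colon (top) and liver (bottom); height within a row carries no value. In the DSS colon the line falls among the pan-leukocyte and macrophage points and to the right of the B cell and platelet points.

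Genes with the pattern most like a member were found by the Euclidean distance between log2 intensities centred on each gene's own mean, over the 3 arrays of a tissue. Only members measured on all 3 arrays that spanned 2-fold had neighbours named. In liver the nearest to Alox5ap among 10130 genes were Stk17b, Fli1 and Ptprc, the gene of the leukocyte antigen CD45, at distances of 0.018 to 0.022. Ptprc gave 1549 in DSSPAR, 2134 in DSS and 1033 in CON.

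In colon the nearest to Alox5ap among 10543 genes were Prps1, Gbp7 and Sgo1, at distances of 0.015 to 0.054. For Lta4h in liver they were Wdr6, Abcc3 and Magi1, at 0.018 to 0.022. With 3 arrays many genes are close: 329 lay within 0.25 of Alox5ap and 301 within 0.25 of Lta4h in liver, and 83 within 0.25 of Alox5ap in colon.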

How the data were processed

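The authors deposited linear-scale intensities for every probe set of each array, made with MAS5 per the submitters' processing notes, from biotin-labelled cRNA of 15 µg total RNA per the labels' protocols. The MAS5 version and its target are not stated there. All 6 columns were matched to samples by their labels, and 0 went unused. GEO's platform annotation gave 1 symbol to 34958 of the 45101 probe sets and several to 932, and did not list 9211. Only those with 1 symbol were used. Of those with 1 symbol, 34754 were found by Entrez identifier and 0 needed an update.

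Where a gene had several probe sets, the one with the highest mean log2 value in that tissue stood for it. Log2 ratios were computed for the 3 pairs of groups within a tissue, with the floor at the median and calls at 2-fold. With 1 array per group no test was run. The 6 genes, the pathway and marker lists and the rules were chosen with earlier results of these data known. All 6 members were named with every probe set, and from each list the genes past 2-fold in the comparison described and the brightest in that tissue, at most 6. Pla2g4a and Cysltr1 in colon, Mgst2, Cotl1 and Ltb4r1 were named outside this rule, for their role, after their values were seen. Beside some counts, listed genes that did not pass 2-fold or went another way were named too. Alternatives were the floor, the scaling, the choice of probe set and the fold threshold. Counting was tested on simulated data, in which only genes far above the floor were changed and noise was set from probe disagreement. The CON level of Alox5ap was below that of the genes changed, and differences between pools were not simulated. It is a check of the counting alone. Python 3.11.15, NumPy 2.4.6, pandas 2.3.3 and matplotlib 3.10.9 were used.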

Additional observations from a re-analysis of the deposited data

Results flagged for a closer look

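Lta4h differed in sign between the tissues for DSS against CON. Its log2 ratio was 0.19 in colon and -0.67 in liver, a difference of 0.85, with 1 array pair behind each value. The difference between the tissues was not tested, the colon value is smaller than the robust SD between probe sets there, and the liver value became 0.018 when all 3 probe sets of the gene were averaged.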

How the results depend on the processing

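Alox5ap kept its direction in all 6 comparisons under the 7 alternatives of floor, scaling and probe set choice. It has 1 probe set, not of shared type and above the floor on all arrays. Removing the floor, averaging probe sets and leaving out shared ones therefore had to return the main value. Only the raised floor and the scalings could move it. Its log2 ratio ranged from 1.13 to 1.73 for DSS and from 0.75 to 1.54 for DSSPAR against CON in colon, and from 0.62 to 1.19 and from 0.13 to 0.86 in liver. For DSSPAR against DSS it ranged from -0.38 to -0.19 in colon and from -0.53 to -0.32 in liver. Lta4h in liver ranged from 1.03 to 1.24 for DSSPAR against DSS, without a value when probe sets of shared type (_s_at, _x_at, _a_at) were left out, since its bright probe set is one. With all 3 probe sets averaged it was 0.018 for DSS and 1.25 for DSSPAR against CON in liver. In colon its DSS against CON ratio turned to -0.23 without shared probe sets, and its DSSPAR against DSS ratio was -0.0053 after quantile normalization. Of 99 member ratios recomputed, 91 moved by less than the robust SD between probe sets and 8 by more. The 91 include recomputations that could not differ from the main value, such as those for genes with 1 probe set.

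The count of members past 2-fold, 1 each for colon DSS and DSSPAR against CON, liver DSS against CON and liver DSSPAR against DSS, and 0 for the others, changed as follows. A floor at the 75th percentile made it 0 for colon DSSPAR against CON and liver DSS against CON. Without a floor it was 3 for colon DSSPAR against DSS, 3 for colon DSSPAR against CON, 4 for liver DSSPAR against DSS and 2 for liver DSSPAR against CON, most of them members at background. At a 3-fold threshold it was 0 for colon DSSPAR against CON, liver DSS against CON and liver DSSPAR against DSS. It was 0 for liver DSSPAR against DSS without shared probe sets and 1 for liver DSSPAR against CON (Lta4h) with probe sets averaged.

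Counts of all genes past 2-fold are given for colon first and liver second, each with DSS over CON, DSSPAR over DSS, then DSSPAR over CON. The main counts were 855, 192, 663, 1164, 872 and 854. They were 376, 71, 295, 470, 380 and 286 under that higher floor, 3569, 2827, 3436, 4826, 4566 and 4581 without a floor, and 272, 36, 188, 230, 103 and 139 at 3-fold. With arrays centred on their own medians, the count for colon DSSPAR against CON was 1011, split into 890 higher and 121 lower against 415 and 248.

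That centring shifted the median of all probe sets by 0.084 to 0.31 log2. It also moved the splits of higher and lower genes to 108 and 79, against 46 and 146, for colon DSSPAR against DSS, and in liver to 854 and 349, against 616 and 548, to 674 and 332, against 347 and 525, and to 1007 and 188, against 415 and 439. For colon DSSPAR against DSS the split was 68 and 99 when centring used only probe sets above the floor, and 66 and 92 after quantile normalization. The causes were not tested. Signal over background limits Alox12, Alox15 and Ltc4s in both tissues and Alox5 in colon. No paired analysis was possible because each group has 1 array.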
